A study of Homo sapiens with 4 samples.

Results

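The clustered protocadherins are cell surface adhesion proteins of the cadherin superfamily, encoded side by side in the alpha, beta and gamma clusters. Every gene whose symbol is PCDHA, PCDHB, PCDHGA, PCDHGB or PCDHGC followed by its number, or PCDHAC followed by its number, was taken as a member. That gave 54 of the 62696 genes in the count tables, of which 16 were alpha, 16 beta and 22 gamma members. RNA of NT2 cells, a human embryonal carcinoma line also called NTERA-2 that can form neurons, was sequenced after depletion of ribosomal RNA. The question was how a knockdown of HYDIN2, a partial copy of the cilia gene HYDIN, changes the transcriptome. The empty vector group held 1 library, which the labels call wild type. The other 3 libraries are labelled HYDIN2 knockdown, replicates 1 to 3. The way the knockdown was made is not given in the sources used here. Nothing states that the replicates were separate cultures, so the spread between them may be technical.

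In neurons each cell switches on a small, partly random choice of the alpha, beta and gamma genes, and the proteins pair only with the same proteins on a facing membrane, which lets a cell tell its own branches from those of others. Each alpha and gamma messenger joins 1 variable exon, with its own promoter, to constant exons shared by the cluster, whereas each beta gene is a single coding exon with no constant part. The C-type members at the ends of the alpha and gamma clusters (PCDHAC1, PCDHAC2, PCDHGC3, PCDHGC4 and PCDHGC5) are known to be used more uniformly than the rest. Choice among the other promoters is tied to DNA methylation and to loops held by CTCF and cohesin, which bring a distant enhancer to a promoter. Most of these promoters carry a short shared element named after its CGCT core.

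All 54 members lie on the plus strand of chromosome 5 in GENCODE 29 (GRCh38). The alpha cluster spans chr5:140786136-141012347, the beta cluster chr5:141051135-141249365 and the gamma cluster chr5:141330571-141512981. The annotation classes 53 members as protein coding and PCDHA14 as a transcribed unprocessed pseudogene. The 15 coding alpha members have 2866 exon bases in common and the 22 gamma members have 2181, while no exon base was shared by all beta members. A read from such shared exons cannot be given to 1 member. In the files PCDHA1 had 0 counts in all 4 libraries, and the lowest gamma members had 2, 10, 7 and 10 counts in the empty vector library and replicates 1, 2 and 3. Reads of the constant exons were therefore not credited to every member, and single genes are given below together with cluster sums.

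The CGCT core of the promoter element is shown first because most member promoters hold these letters, which alone do not make the element. RefSeq (GRCh38.p14) gave a promoter, from 250 bases before to 50 after the start, for 47 members. CGCT was searched on both strands and found in 46 of the 47 (97.9%), against 70.0% of all 35116 promoters in the table. Within the stretch from 90 to 10 bases before the start, on the sense strand, 43 of 47 member promoters (91.5%) held CGCT, against 24.3% of all promoters. That stretch, and the letters before the core compared further on, were chosen after the sequences were seen. The windows below show the plus strand 5′ to 3′ with CGCT in capitals, for members that carry the results. They were chosen to show both the members that differed from the empty vector library and those that differed among the labelled knockdown libraries.
PCDHA4: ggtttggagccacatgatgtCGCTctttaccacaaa
PCDHA11: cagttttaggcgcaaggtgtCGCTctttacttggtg
PCDHAC1: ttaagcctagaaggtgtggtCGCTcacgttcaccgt
PCDHB2: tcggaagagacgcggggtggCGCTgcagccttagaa
PCDHB5: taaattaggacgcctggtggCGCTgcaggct
PCDHB13: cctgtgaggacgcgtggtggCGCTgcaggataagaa
PCDHGA11: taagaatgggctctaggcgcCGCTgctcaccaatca
PCDHGB6: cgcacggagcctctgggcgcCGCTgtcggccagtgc
PCDHGB7: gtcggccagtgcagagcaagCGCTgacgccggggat
PCDHGC3: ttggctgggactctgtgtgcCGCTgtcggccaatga

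The alpha windows lie at chr5:140806975-140807010 for PCDHA4, chr5:140868879-140868914 for PCDHA11 and chr5:140926216-140926251 for PCDHAC1. The beta windows lie at chr5:141094540-141094575 for PCDHB2, chr5:141135175-141135205 for PCDHB5 and chr5:141213861-141213896 for PCDHB13. Those of the gamma cluster lie at chr5:141420968-141421003 for PCDHGA11, chr5:141407920-141407955 for PCDHGB6, chr5:141417603-141417638 for PCDHGB7 and chr5:141475876-141475911 for PCDHGC3. The letters just before the core were most alike among the beta members. Of the 12 alpha windows, 9 read GATGTCGCT, the exceptions being PCDHA11, PCDHAC1 and PCDHAC2. Of the 13 beta windows, 12 read GGTGGCGCT. Among the 18 gamma windows the commonest form, GGCGCCGCT, was found in 5, among them PCDHGA11 and PCDHGB6. In PCDHGB7 the marked CGCT is not at the same place as in PCDHGB6, since its window opens with the 12 letters that follow CGCT in PCDHGB6, and there they follow cgcc. The 3 commonest forms occurred in the same stretch in 11, 46 and 65 of all 35116 promoters, the members included. The core of the CTCF motif, searched on both strands as 1 strict string of letters, was in 1 of the 47 member promoters (2.13%, PCDHB9) and in 2.41% of all. In PCDHB9 the match, at 82 bases before the start, runs into the core of the promoter element at 71. Sites that differ from the string in any fixed letter are missed. The search therefore cannot show that the other member promoters lack a CTCF site, or that the motif and the element are separate. A match is a description of the letters and says nothing of binding in these cells.

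The libraries held between 25181737 and 62904698 counts, and the members took between 0.00940% of them in the empty vector library and 0.0214% in replicate 3. Levels are given as CPM, the usual depth-scaled count, with library totals adjusted by trimmed mean of M-values (TMM). The smallest amount read as detected, 3 counts, was worth 0.125 CPM with the empty vector and 0.0482, 0.0503 and 0.0960 CPM in replicates 1, 2 and 3. HYDIN2 itself was at 0.50, 2.41, 1.88 and 0.35 CPM in the empty vector library and replicates 1, 2 and 3, from 12, 150, 112 and 11 counts, so the target was higher in replicates 1 and 2 and within counting error in replicate 3. For that reason these are called labelled knockdown libraries throughout, and every direction given rests on the labels. Replicates 1 and 2 were close to each other. Of 15880 genes with a mean of at least 1 CPM over the 2 group means, called tested genes here, 48 (0.302%) differed at least 2-fold between them, and 0 of the tested members did. Replicate 3 stood apart, with 3423 genes at least 2-fold from replicate 1, more than the 2978 between the empty vector library and replicate 1. Chi-square per gene between replicates 1 and 2 averaged 2.65 over 49 members, where counting noise alone gives about 1, or 2 where a pair counts as 2 reads, so they were kept as separate samples. All 10 embryonal carcinoma markers, such as POU5F1 and SOX2, were tested genes, with summed levels of 8760, 9550, 9699 and 7864 CPM. Against the empty vector library their median log2 difference was -0.08, -0.03 and -0.84 in replicates 1, 2 and 3, with 2 of the 10 at least 2-fold lower in replicate 3 than in both other replicates and DNMT3B lower in all 3. Since NT2 cultures can also hold differentiating cells, fewer cells with a transcript and less of it per cell cannot be told apart in these bulk libraries.

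Of the 54 members, 51 had a count in every library and 26 were tested genes: 8 alpha, 8 beta and 10 gamma members. The other 28 had lower means, the highest of them 0.952 CPM against 1.04 CPM for the lowest tested member. A member high in 1 group only can pass this minimum through that group. Summed over members, the alpha cluster was at 34.7 CPM in the empty vector library and at 42.3, 40.3 and 65.0 CPM in replicates 1, 2 and 3. The beta cluster was at 41.2 CPM and then 32.2, 32.5 and 78.1 CPM. For the gamma cluster the sums were 22.6 CPM and then 38.5, 37.5 and 52.8 CPM. Replicate 3 had the highest sum in each cluster, whereas the empty vector library had the lowest sum in alpha and gamma but not in beta.

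**Figure D1:**
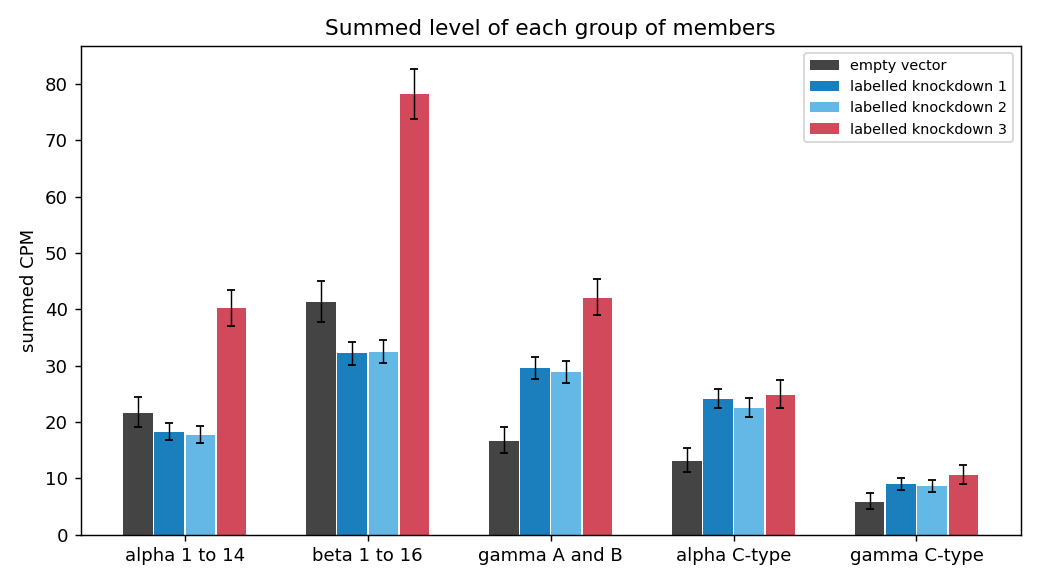
Summed CPM (y axis) of 5 groups of members (x axis) by library, empty vector first; bars are sums and whiskers are exact Poisson 95% intervals on counts divided by 2, which cover counting error only. The beta sum of 78.1 CPM in replicate 3 is the tallest bar, while the alpha C-type sums of the labelled knockdown libraries lie between 22.5 and 24.8 CPM.

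The gamma sum was 1.71-fold (95% interval from counting error 1.49 to 1.95), 1.66-fold (1.45 to 1.90) and 2.34-fold (2.03 to 2.69) the empty vector level in replicates 1, 2 and 3. Its mean log2 difference was 0.91 ± 0.27 (SD, n = 3 labelled knockdown libraries against 1). In the alpha cluster the mean difference was 0.47 ± 0.38 (SD, n = 3) and every ratio interval lay above 1, the lowest running from 1.04 to 1.30 in replicate 2. Without PCDHAC1 the alpha sum was instead 0.896-fold (0.780 to 1.03) and 0.863-fold (0.750 to 0.993) in replicates 1 and 2, and 1.79-fold (1.56 to 2.05) in replicate 3. The beta difference was 0.07 ± 0.73 (SD, n = 3), smaller than its own spread. Replicates 1 and 2 had a beta sum below the empty vector library, at 0.780-fold (0.699 to 0.870) and 0.788-fold (0.706 to 0.880), and replicate 3 had one above it, at 1.89-fold (1.70 to 2.11). Without replicate 3 the beta mean was -0.35 and the alpha mean 0.25 on the log2 scale. With 1 empty vector library the control side has no replicate check, and no p-value is given for a sum or a gene.

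The rule for a difference from the empty vector library asked for at least 2-fold in every labelled knockdown library, with 1 sign throughout. By this rule 3 of the 26 tested members were higher (11.5%) and 0 were lower, beside a background over all tested genes of 3.65% higher and 2.72% lower. Without replicate 3 the same count was 3 higher, beside 9.76%, and 1 lower (PCDHB16), beside 5.36%. Of 26 members those shares would give about as many, so neither count stood out from the background there. Without replicate 2 the count was 5 higher, beside 4.36%, with PCDHAC1 and PCDHGC4 added. At a minimum of 5 CPM it was 1 of 5 (PCDHGA11), beside 3.21%, and with 1.5-fold in place of 2-fold it was 6 of 26, beside 10.0%. The 3 were PCDHGA11, PCDHGB6 and PCDHGB7, which lie in the 3′ part of the gamma variable exons. With the empty vector PCDHGB7 was under the minimum of 1 CPM and PCDHGB6 close to it. Both therefore entered through the labelled knockdown group, where they were high, and their passing is no support beyond that. PCDHGA11 was above the minimum in every library. Any difference above the empty vector library in all 3 was seen in 14 of 26 members, beside 30.1% of all tested genes, and any difference below it in all 3 in 1 member, beside 34.2%. edgeR's quasi-likelihood test called 0 of 26029 genes at an adjusted p of 0.05 and 3023 (11.6%) at an unadjusted p under 0.05. Its counts for the 51 members it took in were 0 and 6, the 6 being higher. That unadjusted share was near the one of all genes. The Wald test of DESeq2 called 0 of the members and 388 genes in all (1.49%). Without replicate 3, edgeR called 11177 of 25016 genes (44.7%) and 12 of 51 members, of which 8 were higher, with 1 library against 2.

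PCDHGB7 (ENSG00000254122.3, chr5:141417645-141512979) was at 0.916 CPM in the empty vector library and at 4.24, 3.42 and 3.65 CPM in replicates 1, 2 and 3. It is a gamma B variable member, and its labelled knockdown values did not overlap the empty vector value. The mean was 3.77 ± 0.42 CPM (SD, n = 3), a mean log2 difference of 1.98 ± 0.16, and the single ratios were 4.63, 3.73 and 3.98 with a lowest interval of 2.00 to 7.70. PCDHGB6 (ENSG00000253305.3, chr5:141408021-141512979), another gamma B member, was at 1.00 CPM and then 2.68, 3.35 and 2.85 CPM. Again the empty vector library was the lowest, and the mean log2 difference was 1.52 ± 0.16 (SD, n = 3). PCDHGA11 (ENSG00000253873.6, chr5:141421047-141512979), a gamma A member, was at 3.58 CPM and then 8.83, 8.38 and 11.7 CPM. It took the most counts of the gamma cluster in each labelled knockdown library and had a mean log2 difference of 1.40 ± 0.25 (SD, n = 3). After removal of the smooth dependence of the differences on transcript length and GC content, the same 3 members passed, beside 2.94% of all genes with a value, and their mean differences were 1.94, 1.42 and 1.37.

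PCDHGA10, which lies between PCDHGB6 and PCDHGB7, was at 2.71 CPM in the empty vector library and at 3.74, 4.02 and 6.24 CPM, a mean log2 difference of 0.74 ± 0.40 (SD, n = 3). It did not reach 2-fold in replicates 1 and 2. PCDHGB4 was at 1.00 CPM and then 1.06, 1.07 and 1.76 CPM. PCDHGA8 was at 1.12 CPM and then 0.932, 1.01 and 1.505 CPM. For both of these the interval of every ratio included 1. PCDHGB2 and PCDHGB3, also gamma B members and neither picked out by the naming rule, had mean log2 differences of 0.90 ± 0.27 and 0.16 ± 0.36 (SD, n = 3). The difference from the empty vector library thus ran from -0.26 to 2.16 in replicate 1 over the 10 tested gamma members, and from 0.37 to 1.94 in replicate 3.

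**Figure D2:**
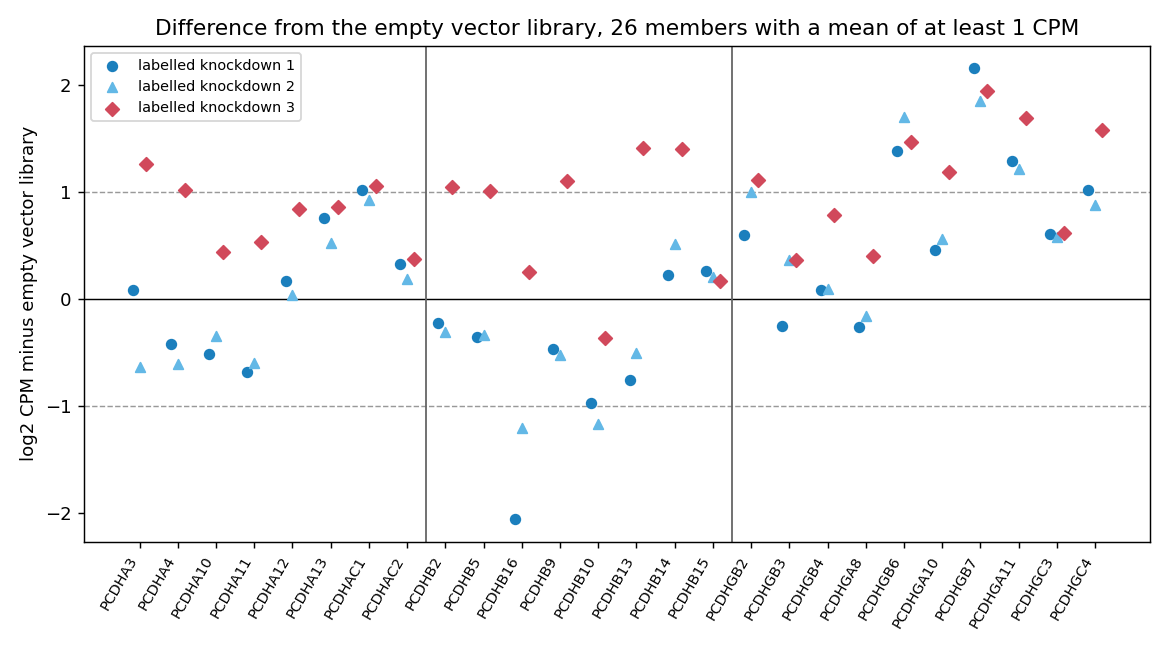
Log2 CPM difference from the empty vector library (y axis) for the 26 tested members in chromosomal order, alpha, beta and gamma from left to right (x axis), 1 symbol per labelled knockdown library; dashed lines mark 2-fold. PCDHGB6, PCDHGB7 and PCDHGA11 lie above the upper line with all 3 symbols, and replicate 3 lies apart from replicates 1 and 2 in most beta members.

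The C-type members were taken next. PCDHAC1 (ENSG00000248383.5, chr5:140926369-141012344) was at 9.91 CPM in the empty vector library and at 20.1, 18.9 and 20.7 CPM in replicates 1, 2 and 3. The empty vector value lay below all 3, with ratios of 2.03, 1.90 and 2.09 and a lowest interval of 1.56 to 2.34. Its log2 differences of 1.02, 0.92 and 1.06 fell just short of the 2-fold rule in replicate 2, and with the length and GC trends removed the mean was 0.81. PCDHAC2 was at 3.21 CPM and then 4.05, 3.65 and 4.16 CPM, with every ratio interval including 1. PCDHGC3 was at 4.21 CPM and then 6.44, 6.30 and 6.47 CPM, and its ratios of 1.53, 1.497 and 1.54 had intervals above 1, the lowest running from 1.10 to 2.11. PCDHGC4 was at 1.00 CPM and then 2.07, 1.88 and 3.07 CPM, the interval in replicate 2 reaching 0.994. PCDHGC5, which was under the level minimum, was at 0.667 CPM and then 0.482, 0.469 and 1.12 CPM.

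Together the 5 C-type members summed to 19.0 CPM with the empty vector, then to 33.1, 31.2 and 35.5 CPM in replicates 1, 2 and 3. The labelled knockdown libraries all lay above the empty vector library, by a mean log2 difference of 0.80 ± 0.09 (SD, n = 3), a smaller SD than that of any whole cluster. PCDHAC1 was the highest of the 5 in each library and weighs most in this sum, which was not taken without PCDHAC1 alone. The gamma C-type members, without PCDHAC1 and PCDHAC2, had a mean log2 difference of 0.67 ± 0.16 (SD, n = 3). Their sum was 1.53-fold (1.18 to 2.03), 1.47-fold (1.13 to 1.96) and 1.81-fold (1.37 to 2.45) the empty vector level in replicates 1, 2 and 3. Between replicates 3 and 1 the sum of all 5 C-type members had a ratio of 1.07 (0.964 to 1.19), and between replicates 3 and 2 of 1.14 (1.02 to 1.27). The 49 other members summed to 79.6 CPM and then 79.9, 79.1 and 160.4 CPM. The near-equal sums in replicates 1 and 2 hold groups that lay on opposite sides of the empty vector library. The gamma A and B members together were 1.77-fold (1.52 to 2.07) and 1.73-fold (1.48 to 2.03) its level in replicates 1 and 2, the beta members were below it as given above, and the alpha members other than C-type were 0.842-fold (0.726 to 0.980) and 0.822-fold (0.708 to 0.958). In replicate 3 the same 3 groups were 2.52-fold, 1.89-fold and 1.86-fold. The ratio of replicate 3 to replicate 1 was 2.01 (1.90 to 2.12) over the 49 members, but it varied by cluster. In the gamma cluster it was 1.26 (1.05 to 1.49) for gamma B, 1.52 (1.34 to 1.73) for gamma A and 1.19 (0.969 to 1.44) for C-type members. Each of these intervals overlaps the others. In the alpha cluster it was 2.21 (1.97 to 2.48) without the C-type members and 1.03 (0.909 to 1.17) for them.

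Replicate 3 was next compared with the other labelled knockdown libraries. The differences use no empty vector values, but the level minimum behind the tested genes does. That minimum also includes replicate 3 itself, so a member high there can pass through it, as PCDHA3 and PCDHB9 did. Replicate 3 was at least 2-fold above both replicates 1 and 2 in 8 of 26 tested members (30.8%). It was 2-fold below both in 0, beside a background of 6.2% higher and 13.1% lower. By any size replicate 3 was above both in 23 members, beside 37.8% of all tested genes. The 8 members were PCDHA3, PCDHA4, PCDHA11, PCDHB2, PCDHB5, PCDHB16, PCDHB9 and PCDHB13, which is 3 of 8 alpha, 5 of 8 beta and 0 of 10 gamma members. None of the 4 tested C-type members was among them. Over members, the median log2 difference of replicate 3 was 0.67 from replicate 1 and 0.70 from replicate 2, beside -0.17 and -0.18 over all tested genes. At a minimum of 0.1 CPM, 19 of 51 members were higher in replicate 3 and 0 lower, beside 14.6% and 13.4% of genes at that minimum. Of the C-type members 1, PCDHGC5, was among these 19. At a minimum of 5 CPM, 2 of 5 members were higher in replicate 3 (PCDHB5 and PCDHA11), beside 3.53%, and with 1.5-fold in place of 2-fold 14 of 26 were, beside 14.5%.

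PCDHB5 (ENSG00000113209.9, chr5:141135218-141138625) had the highest level of all members, also per length (given further on). It was at 24.7 CPM in the empty vector library and at 19.4, 19.6 and 49.8 CPM in replicates 1, 2 and 3. Replicates 1 and 2 lay below the empty vector library, at ratios of 0.782 (0.679 to 0.901) and 0.791 (0.686 to 0.912), and replicate 3 above it, at 2.01 (1.76 to 2.31). Replicate 3 was 2.57-fold (2.31 to 2.87) replicate 1. PCDHB2 was at 4.17 CPM and then 3.55, 3.35 and 8.64 CPM, again highest in replicate 3 and lower in replicates 1 and 2 than with the empty vector. PCDHB13 was at 1.58 CPM and then 0.915, 1.11 and 4.29 CPM, with replicate 3 at 4.69-fold (3.03 to 7.70) replicate 1. PCDHB9, the member with the CTCF core letters, was at 1.12 CPM and then 0.803, 0.771 and 2.46 CPM. PCDHB16 was at 2.42 CPM and then 0.546, 1.02 and 2.88 CPM, so that it was lower in replicates 1 and 2 than in both other libraries, with ratios to the empty vector library of 0.226 (0.117 to 0.425) and 0.423 (0.241 to 0.718).

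Not every beta member followed this order. PCDHB15 was at 1.96 CPM in the empty vector library and at 2.36, 2.26 and 2.21 CPM, and every ratio interval included 1. PCDHB14 was at 0.833 CPM and then 0.980, 1.21 and 2.27 CPM. PCDHB10 was at 1.33 CPM and then 0.658, 0.570 and 1.02 CPM, the 1 tested member below the empty vector library in all 3, by a mean log2 difference of -0.83 ± 0.42 (SD, n = 3). Its interval in replicate 3, 0.360 to 1.64, included 1. Without PCDHB5 the beta sum was 16.5 CPM with the empty vector, then 12.8, 12.9 and 28.4 CPM, so the order of the libraries did not rest on that gene.

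In the alpha cluster PCDHA11 (ENSG00000249158.7, chr5:140868183-141012344) was at 8.96 CPM in the empty vector library and at 5.56, 5.90 and 13.0 CPM. Its ratios were 0.620 (0.487 to 0.801) and 0.658 (0.517 to 0.849) in replicates 1 and 2, and 1.45 (1.15 to 1.86) in replicate 3. PCDHA4 was at 3.42 CPM and then 2.54, 2.23 and 6.98 CPM, with replicate 3 at 2.75-fold (2.04 to 3.72) replicate 1. Both were lowest in replicates 1 and 2 and highest in replicate 3. PCDHA3 was at 1.04 CPM and then 1.11, 0.653 and 2.56 CPM. PCDHA13 was at 0.791 CPM and then 1.37, 1.16 and 1.47 CPM, with replicate 3 at 1.08-fold (0.627 to 1.86) replicate 1. Taken without PCDHAC1 and PCDHAC2, the alpha members summed to 21.6 CPM and then 18.2, 17.8 and 40.2 CPM. In all, 9 of the 26 tested members (34.6%) were below the empty vector library in replicates 1 and 2 and above it in replicate 3, beside 10.2% of all tested genes. They were 3 alpha, 5 beta and 1 gamma members. Replicate 3 was the highest of the 4 libraries for 22 members (84.6%), beside 27.05% of all tested genes.

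**Figure D3:**
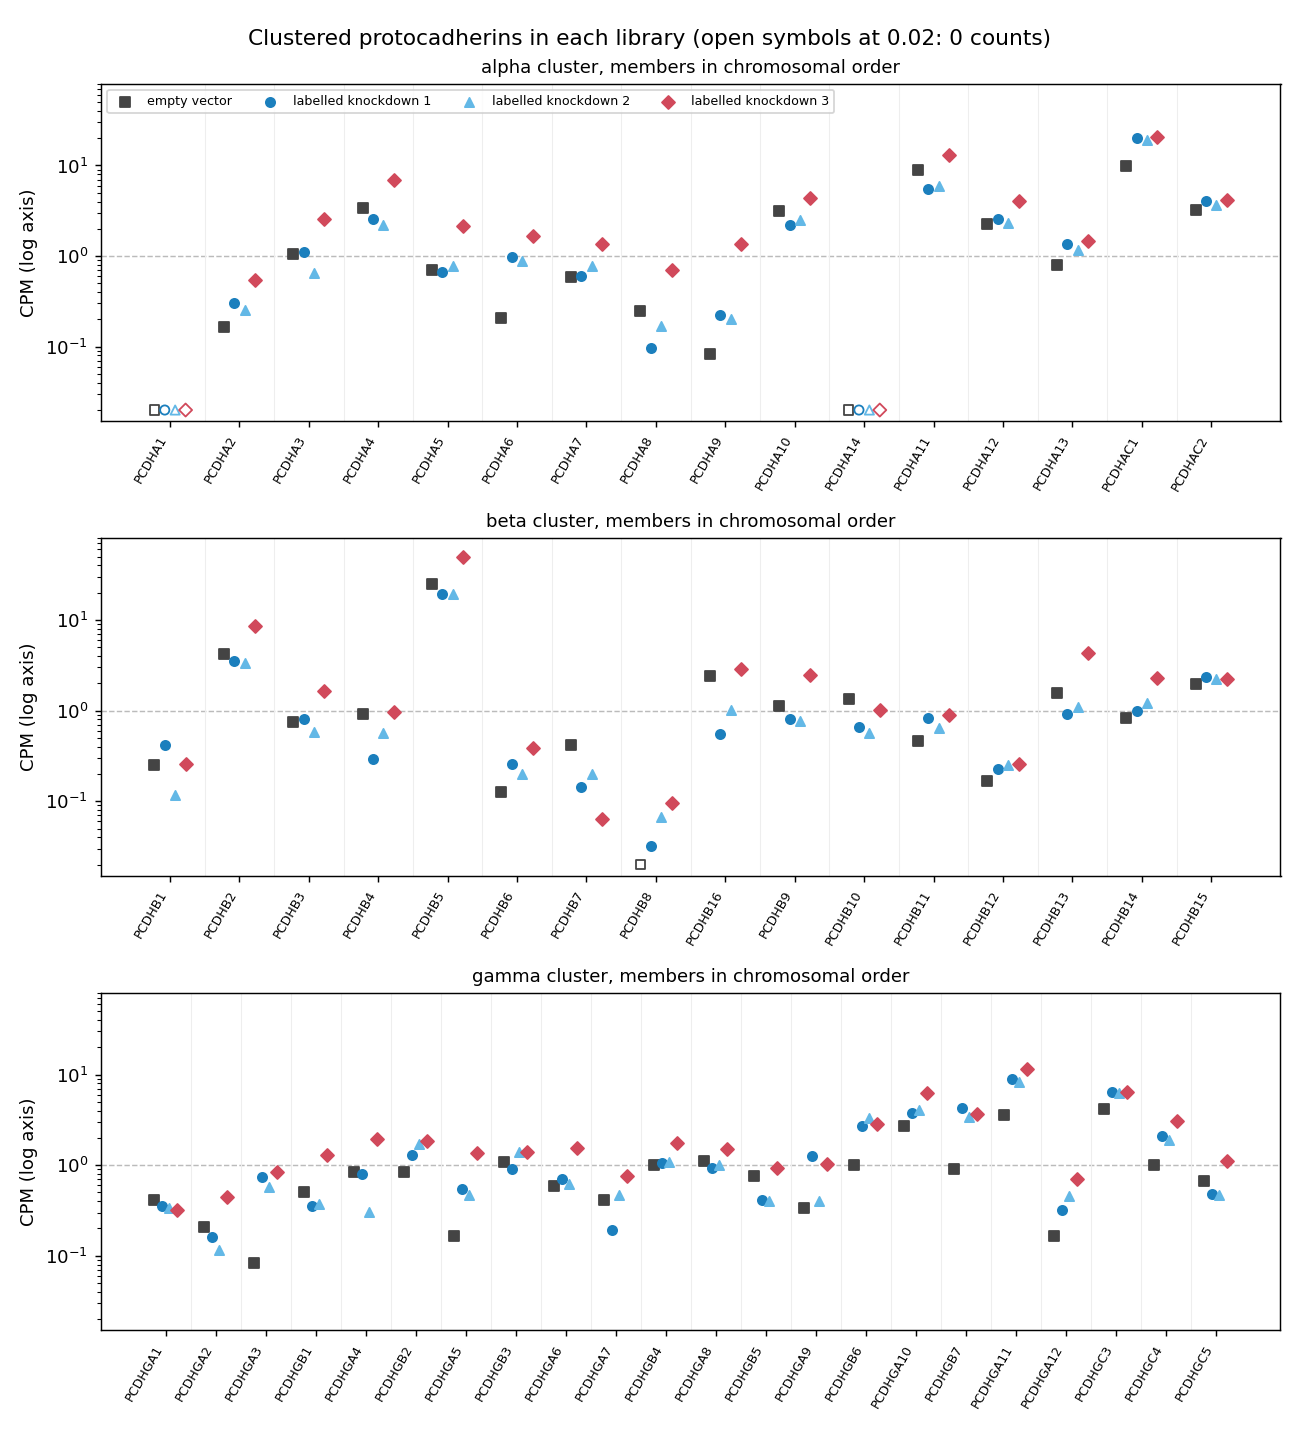
CPM on a log axis (y axis) of each of the 54 members in chromosomal order (x axis), by cluster from top to bottom, 1 symbol per library; open symbols at the bottom stand for 0 counts and the dashed line for 1 CPM. PCDHB5 is the highest member, PCDHA1 and PCDHA14 are at 0 in all 4 libraries, and replicate 3 is the highest library for 22 of the 26 tested members.

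Members under the level minimum were read from few counts. PCDHA1 and PCDHA14 had 0 counts in all 4 libraries, and PCDHB8 had 0 in the empty vector library. At a minimum of 0.1 CPM, 6 of 51 members were higher than the empty vector library by the 2-fold rule and 0 were lower, beside 6.04% and 3.89% of 26586 genes. This added PCDHA6, PCDHGA3 and PCDHGA5, named after their values were seen. PCDHA6 was at 0.208 CPM in the empty vector library and at 0.980, 0.888 and 1.66 CPM. PCDHGA3 was at 0.0833 CPM, from 2 counts, and then 0.739, 0.570 and 0.832 CPM, its ratio in replicate 1 being 8.87 (1.44 to 365). For PCDHGA5, at 0.167 CPM and then 0.546, 0.469 and 1.38 CPM, the interval included 1 in replicates 1 and 2. Of the 51 members with a count in every library, 7 (13.7%) had all 3 ratio intervals above 1 (PCDHA6, PCDHAC1, PCDHGA3, PCDHGB6, PCDHGB7, PCDHGA11 and PCDHGC3) and 0 had all 3 below, beside 11.3% and 14.1% of the 25476 such genes. The share above is near the background.

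The share of its cluster taken by each member does not depend on the scaling of the libraries, and shares are given with exact 95% Clopper-Pearson intervals. PCDHB5 took 594 of the 990 beta counts in the empty vector library (interval 55.5% to 64.3%), and its share was 60.2%, 60.3% and 63.7% (60.9 to 66.4) in replicates 1, 2 and 3, so the beta cluster differed in sum with 1 member at a nearly even share. PCDHAC1 took 28.5% (24.2 to 33.1) of the alpha counts in the empty vector library, 47.5% (44.7 to 50.2) and 46.8% (44.0 to 49.7) in replicates 1 and 2, and 31.8% (28.9 to 34.8) in replicate 3. PCDHA11 took 25.8% (21.5 to 30.1) and then 13.1%, 14.6% and 19.98% (17.6 to 22.6). In the alpha cluster the empty vector library and replicate 3 thus had overlapping PCDHAC1 shares, and replicates 1 and 2 had higher ones. PCDHGA11, PCDHGB6 and PCDHGB7 together took 24.4% (19.4 to 29.9) of the gamma counts with the empty vector, and 40.9%, 40.4% and 34.4% (31.1 to 37.7) in the labelled knockdown libraries. The C-type members took 19.3% of the counts of all members in the empty vector library, 29.3% and 28.3% in replicates 1 and 2, and 18.1% in replicate 3. Beta members took 41.8% and then 28.5%, 29.5% and 39.9%, and gamma members took 22.9% and then 34.1%, 34.0% and 26.9%. For the beta and gamma clusters, then, the share in replicate 3 lay between that of the empty vector library and those of replicates 1 and 2. Its interval overlapped that of the empty vector library, though. In beta they ran from 38.1% to 41.6% in replicate 3 and from 39.0% to 44.7% with the empty vector, and in gamma from 25.36% to 28.54% and from 20.54% to 25.41%.

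**Figure D4:**
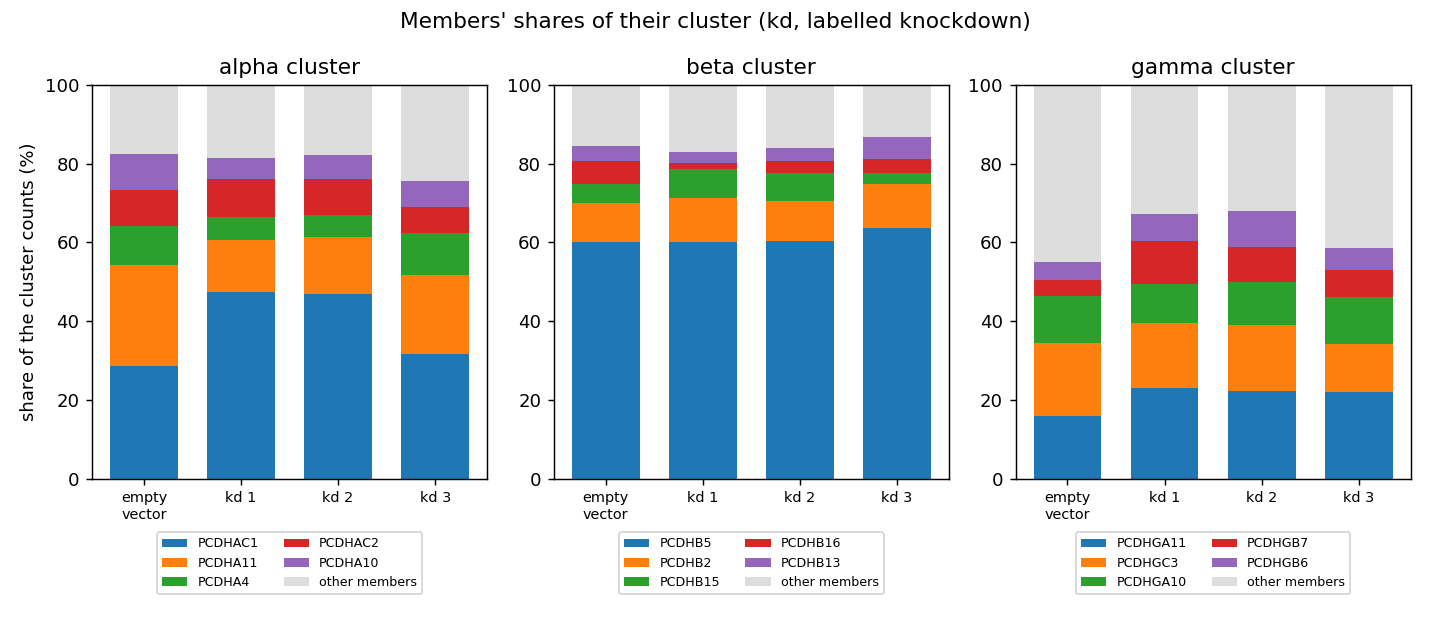
Share of the summed counts of each cluster (y axis, %) taken by the 5 members with the highest mean level and by all others (grey), by library, empty vector first and then the labelled knockdown libraries (kd 1 to 3, x axis). PCDHB5 holds 63.7% of the beta counts in replicate 3 and 60.2% in replicate 1, while PCDHAC1 holds 28.5% of the alpha counts in the empty vector library and 47.5% in replicate 1.

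Levels of different members were compared per kilobase of exon that no other annotated gene on the same strand overlaps, with the limit that reads of shared exons may be credited to some members. PCDHB5 was highest in each library, at 7.26 CPM per kilobase in the empty vector library and at 5.68, 5.75 and 14.6 CPM per kilobase in replicates 1, 2 and 3. PCDHAC1 was at 2.43 and then 4.93, 4.63 and 5.07 CPM per kilobase, and PCDHA11 at 2.67 and then 1.65, 1.75 and 3.87 CPM per kilobase. In the empty vector library these alpha members were near each other, and in replicates 1 and 2 PCDHAC1 was well above PCDHA11. PCDHGA11 was at 0.986 and then 2.43, 2.31 and 3.21 CPM per kilobase, and PCDHGC3 at 1.29 and then 1.98, 1.94 and 1.99 CPM per kilobase. PCDHGA11 stood below PCDHGC3 in the empty vector library and above it in each labelled knockdown library.

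Several measures moved with these results. The log2 difference from the empty vector library followed transcript length over 15485 genes, with Spearman's rho of 0.35, 0.30 and 0.46 in replicates 1, 2 and 3, and the tested members had a median transcript length of 4746 bases against 3519 for tested genes. With GC content the rho was -0.18, -0.19 and -0.13 in replicates 1, 2 and 3. Removing the length and GC trends together left the median member difference in replicate 3 at 0.79, from 1.01. Those in replicates 1 and 2 went from 0.13 and 0.14 to -0.05 and -0.04. Summed mesoderm markers (5 genes, 3 of them tested) were at 8.71 CPM with the empty vector and then 5.94, 5.01 and 20.4 CPM, the order of the beta sums except between replicates 1 and 2, and TBXT, a defining gene of mesoderm, had 0 counts in replicates 1 and 2. Summed endoderm markers (6 genes, 3 tested) were at 5.42, 12.7, 10.6 and 19.9 CPM, highest in replicate 3, with FOXA2 at 0 in the empty vector library and replicates 1 and 2. Neural progenitor markers (8 genes, 5 tested, HES5 at 0 in all) summed to 207, 386, 364 and 349 CPM, and neuron markers (13 genes, 12 tested) to 251, 351, 346 and 273 CPM, both lowest in the empty vector library, as the gamma and C-type sums were. Unlike those sums, 5 of the 12 tested neuron markers and 3 of the 5 tested neural progenitor markers were at least 2-fold lower in replicate 3 than in both other replicates, and the neuron median was 0.03 there. Glia markers (6 genes, 2 tested) summed to 50.7, 126, 131 and 19.5 CPM and mesenchyme markers (7 genes, 6 tested) to 504, 645, 634 and 420 CPM, both lowest in replicate 3. The part of these other cell types in the members' values was not tested.

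Factors known to act on these promoters were read from a fixed list of 25 chromatin and loop genes, all of them tested. By the 2-fold rule 2 were higher (ATRX and TET3), 1 was lower (DNMT3B) and 22 were neither, with a median log2 difference of 0.35 beside -0.02 over all tested genes and 0.27 over the tested members. After removal of the length and GC trends the median of the list was -0.003, beside -0.005 over all genes with a value and 0.18 over the tested members. By the 2-fold rule 0 were then higher and DNMT3B alone was lower. The mean difference was 0.55 for ATRX, from 1.22, and 1.05 for TET3, from 1.69. DNMT3B, a DNA methyltransferase and also a marker of the pluripotent state, was at 795 CPM in the empty vector library and at 340, 350 and 349 CPM in replicates 1, 2 and 3. TET3, which oxidises methylated cytosine, was at 35.3 CPM and then 114, 101 and 130 CPM. ATRX, a chromatin remodeller, was at 102 CPM and then 244, 228 and 246 CPM. CTCF, which anchors the loops, was at 132 CPM and then 94.9, 97.0 and 161 CPM. SMCHD1, a repressor of the clusters, was at 79.9 CPM and then 116, 106 and 115 CPM.

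Of 20 genes for intracellular partners and processing of protocadherins, all tested, 0 were higher and 1 was lower. PDCD10, a binding partner of the cytoplasmic part, was at 134 CPM and then 58.0, 60.04 and 55.3 CPM, and did not pass with the trends removed. ADAM10, the protease that cuts the extracellular part, was at 237 CPM and then 188, 176 and 291 CPM, and RET, a receptor kinase that binds protocadherins, at 29.7 CPM and then 29.5, 29.5 and 25.03 CPM. Among 19 genes beside the clusters on 5q31, 16 were tested, 1 was higher and 0 were lower, with a median log2 difference of -0.48. The 1 was PCDH1, a non-clustered protocadherin, at 58.4 CPM and then 212, 200 and 159 CPM. TAF7, a gene between the beta and gamma clusters, was at 42.8 CPM and then 32.1, 28.6 and 27.4 CPM. The pseudogene PCDHGB8P within the gamma cluster was at 0.667 CPM and then 0.787, 1.07 and 2.43 CPM, higher in replicate 3 than in the others.

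Protocadherins and large cadherins outside the clusters were set beside the members. Of 21 listed genes 18 were tested, and 7 were higher by the 2-fold rule and 0 lower, with a median log2 difference of 1.13 beside 0.27 for the tested clustered members. With the length and GC trends removed 4 passed (PCDH17, PCDH8, PCDH1 and PCDH7), the median was 0.41 beside 0.18 for the clustered members, and the mean differences of FAT3, DCHS1 and FAT4 went from 1.45, 1.82 and 2.07 to 0.52, 1.27 and 1.21. PCDH17 was at 0.667 CPM and then 2.36, 2.58 and 5.25 CPM. PCDH8 was at 1.83 CPM and then 5.72, 6.00 and 9.60 CPM. FAT3 was at 75.0 CPM and then 169, 164 and 310 CPM. These genes, PCDH7 and DCHS1 were highest in replicate 3, as most clustered members were, but were above the empty vector library in replicates 1 and 2 too. FAT4 and PCDH1 were higher in replicates 1 and 2 than in replicate 3. Of the 18 tested genes 1 was at least 2-fold higher in replicate 3 than in both other replicates (PCDH17), beside 6.2% of all tested genes. Another 2 were at least 2-fold lower there (PCDH11X and PCDH18), beside 13.1%. The 2 lists share the same libraries, and the difference between them was not tested.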

How the data were processed

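RNA-seq counts of 4 NT2 libraries were used. The authors deposited raw counts, 1 table for each library. Per the file headers, their columns carry the names LacZ control and GKAP_KIF27 rather than those of the labels. Tables were assigned to samples by the series record, and groups came from the titles. The submitters' processing notes name STAR 2.7.11b, featureCounts 2.0.6, DESeq2 and hg38 or GRCh38, with no options; the annotation release and strand setting are not given in the sources used here, so counts of overlapping, antisense and near-identical members are uncertain. The labels' protocols describe a strand-specific kit with ribosomal RNA depletion.

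Between 65.2% and 68.0% of the counts above 0 were even, as when a pair adds 2, so intervals use counts divided by 2. All have a level of 95%, with exact Poisson limits for levels and exact binomial (Clopper-Pearson) for ratios and shares. Intervals and the floor of 3 counts (6 if pairs were counted) cover counting error only.

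TMM factors (edgeR 4.0.16, R 4.3.3) were 0.953, 0.990, 0.969 and 1.094. Log2 CPM used a prior count of 2. edgeR's quasi-likelihood test with filterByExpr and Benjamini-Hochberg adjustment, DESeq2 1.42.0 (Wald test) and limma 3.58.1 (voom) gave numbers of calls only, since their spread comes from the 3 labelled knockdown libraries. Trends were removed by lowess with a span of 0.3. The scripts were tested on simulated data. Exons came from GENCODE 29, in which all 54 members matched by identifier, and promoters from RefSeq.

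Members named with values were the 4 highest of each cluster, the C-type members, and the 3 most different in each direction in either comparison, where any differed, among those with at least 1 CPM. The members and lists were chosen with earlier results of these data known. Alternatives were other scalings, prior counts, level minimums, fold sizes, thinning, trend removal, pseudogenes added and leaving out each labelled knockdown library. Protein sequences were not used here.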

Additional observations from a re-analysis of the deposited data

How the results depend on the processing

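The 3 members higher than the empty vector library by the 2-fold rule became 5 without knockdown replicate 2, 6 at a minimum of 0.1 CPM, 1 at 5 CPM and 6 with a 1.5-fold rule, and the 0 lower members became 1 without replicate 3. The 8 members higher in replicate 3 than in replicates 1 and 2 became 19 at 0.1 CPM, 2 at 5 CPM and 14 with a 1.5-fold rule. Of all genes, the 0 called by edgeR became 388 with DESeq2 and between 17 and 11177 on leaving out 1 labelled knockdown library, and the 0 members called became between 0 and 12. The mean log2 differences of the cluster sums stayed between 0.25 and 0.59 for alpha and between 0.75 and 1.00 for gamma over the scalings, prior counts, thinning, added pseudogenes and left-out libraries, while beta ran from -0.35 without replicate 3 to 0.29 without replicate 1. Trend removal and level minimums apply to single genes and were not run on the sums. Of the mean differences of the 26 tested members, 4 moved by more than their own spread between replicates on removing the length and GC trends and 3 with scaling to total counts. Those of PCDHA10 went from -0.14 to -0.89 and of PCDHAC2 from 0.30 to 0.05 on removing the trends. The others were C-type members too, PCDHAC1 going from 1.00 to 0.81 and PCDHGC3 from 0.60 to 0.57. With total counts PCDHAC1 went to 1.09, PCDHGC3 to 0.69 and PCDHB15 from 0.21 to 0.30. No paired analysis was possible because replicate numbers exist only among the labelled knockdown libraries. Depth limits the 28 members under 1 CPM, several of which had fewer than 10 counts in the empty vector library.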
